A study of Drosophila melanogaster with 4 samples.

Results

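The Greek-letter trypsin genes of Drosophila melanogaster are alphaTry, betaTry, gammaTry, deltaTry, epsilonTry, zetaTry, etaTry, thetaTry, iotaTry and lambdaTry. They were chosen by their FlyBase symbols, and all 10 were found among the 17807 genes of the count table. RNA was sequenced from guts of females homozygous for wh7, a mutant allele of dwdr4, and of females of the strain yw, which served as the wild type (WT). Females of both genotypes were 7 days old, no treatment is given in the labels, and wh7 affects every tissue of the fly rather than the gut alone. The authors state outcrossing of wh7 to yw for their lifespan assay and not for the sequenced females. Genotype and stock background therefore cannot be told apart here. Each genotype had 2 libraries, and each library came from its own pool of 20 to 30 whole guts, so differences between single flies or between gut regions could not be seen.

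Trypsins are serine proteases that cut proteins after lysine and arginine. They are made as inactive precursors, secreted into the gut lumen by enterocytes, the absorptive cells of the midgut, and act there together with chymotrypsin-like proteases and with peptidases that trim the ends of peptides. The genes described here are named as trypsins for their relation to such enzymes, and the separate role of each copy in digestion is less well known than that of the family. In the annotation of assembly BDGP6.54 all 10 genes lie together on chromosome arm 2R. The order along the arm is lambdaTry, kappaTry, zetaTry, etaTry, thetaTry, alphaTry, epsilonTry, betaTry, gammaTry, CG30031, CG30025, deltaTry, CG13202 and iotaTry, where kappaTry, CG30031 and CG30025 are 3 further trypsin-like genes that are not members. The genome build behind the counts is not given in the sources used here, so the annotation was used for order, strand and exonic length only.

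The libraries held 94559036 and 101610356 counts in wh7 and 94150194 and 93603837 counts in WT. The mutated gene dwdr4, listed as wuho, had 2 and 3 counts in the wh7 libraries, against 1489 and 1256 in the WT libraries, in accordance with the labels. Levels are given as CPM (counts per 1000000 counts of the library) after scaling by the trimmed mean of M-values (TMM). Genotypes were compared over the 10795 genes that passed the count filter, by the quasi-likelihood test of edgeR with p-values adjusted after Benjamini and Hochberg, and all 10 trypsin genes passed that filter. SE is the standard error of a log2 fold change, which is wh7 over WT throughout. A gene was called at an adjusted p under 0.05.

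Together the trypsin genes took a smaller share of the library in wh7 than in WT. Their counts summed to 1.61% and 1.68% of all counts in the wh7 libraries, against 2.16% and 2.12% in the WT libraries. The wh7 libraries were both below the WT libraries, and the genotypes were further apart than the libraries of either one. On the CPM scale the sum averaged 16443 ± 184 in wh7 and 21417 ± 907 in WT (SD, n = 2 each), a ratio of 0.768. The 4 single ratios of a wh7 library to a WT library lay between 0.740 and 0.798. Counting error was small beside this, since the exact (Clopper-Pearson) 95% interval of the share in wh7 replicate 1 ran from 1.606% to 1.611%; such intervals cover counting error only. No p is given for the sum, because the genes were grouped with results of these libraries known. In bulk guts, fewer enterocytes and less trypsin RNA per enterocyte cannot be told apart.

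**Figure D1:**
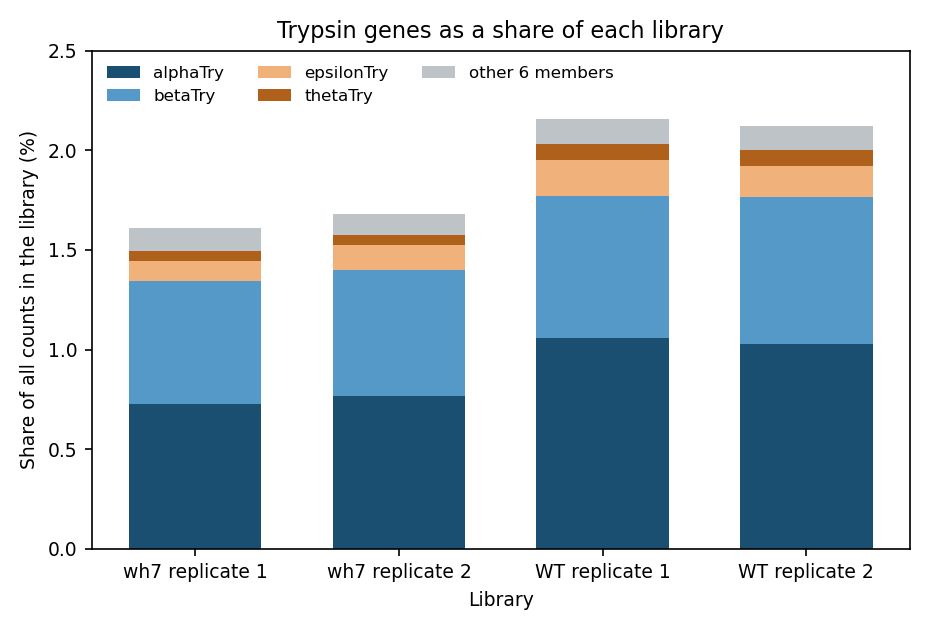
Share of all counts in each library (vertical axis, %) taken by alphaTry, betaTry, epsilonTry, thetaTry and the other 6 trypsin genes, as stacked bars for 2 wh7 and 2 WT libraries. The stacks reach 1.61% and 1.68% in wh7 and 2.16% and 2.12% in WT, and alphaTry and betaTry make up most of each.

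Most of these counts came from a pair of genes. In the wh7 libraries alphaTry and betaTry together held 83.7% and 83.2% of the trypsin counts, against 82.2% and 83.0% in the WT libraries. Within the pair the balance differed, with 1.17 and 1.22 alphaTry counts per betaTry count in wh7, against 1.49 and 1.40 in WT. Both ratios in wh7 were below both in WT. The 4 genes lambdaTry, zetaTry, etaTry and iotaTry, grouped after their values were seen, made up 5.40% and 4.68% of the trypsin counts in wh7, against 3.87% and 3.73% in WT.

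The genes differed widely in abundance. Per kilobase of exon in BDGP6.54, alphaTry averaged 8684 CPM in wh7 and 12142 in WT, and betaTry averaged 5840 CPM per kilobase in wh7 and 6769 in WT. Both were among the 50 genes with the most counts in every library. The next in order were epsilonTry (1366 CPM per kilobase in wh7, 2027 in WT), thetaTry (478 in wh7, 767 in WT) and lambdaTry (378 in wh7, 399 in WT). These 5 kept the same order in both genotypes, and no 2 of them overlapped within a genotype. Below them the order was iotaTry, deltaTry, zetaTry, etaTry and gammaTry in wh7, from 203 down to 150 CPM per kilobase, and deltaTry, gammaTry, iotaTry, zetaTry and etaTry in WT, from 297 down to 140. Among these 5, zetaTry overlapped deltaTry and etaTry in wh7, and iotaTry and etaTry in WT, so those neighbours did not differ beyond the spread of their libraries. The gene with the lowest rank in any library was gammaTry, at 1471 of all genes by CPM in wh7 replicate 1. Its place and that of deltaTry are uncertain, because both are near-identical to CG30031 and CG30025 and may share reads with them.

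**Figure D2:**
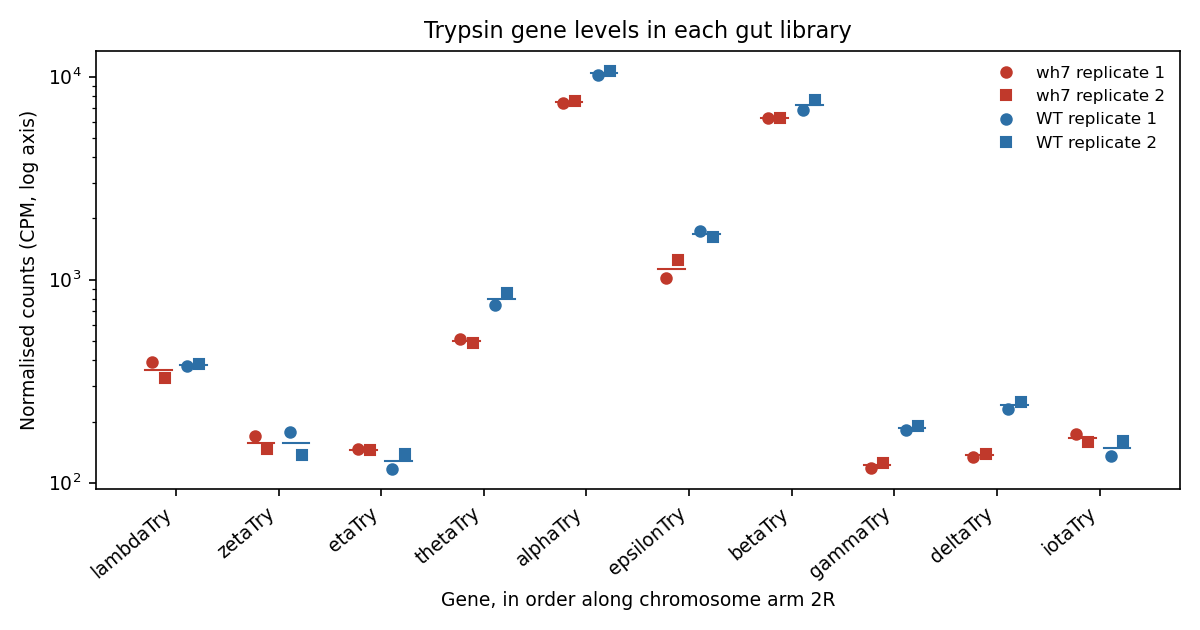
Normalised counts (CPM, log axis) of the 10 trypsin genes in order along chromosome arm 2R, with 2 wh7 libraries (red) left of 2 WT libraries (blue) and a line at each genotype's mean. The genotypes are apart from thetaTry to deltaTry and lie close together or overlap for lambdaTry, zetaTry, etaTry and iotaTry.

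No trypsin gene was called between the genotypes, in either direction, by edgeR's quasi-likelihood test. Over all genes tested, 0.232% were called lower and 0.25% higher in wh7. At an unadjusted p under 0.05, 5 of the 10 trypsin genes were lower in wh7 and 0 higher, while 7.32% of all genes tested were lower and 7.23% higher at that level. DESeq2's Wald test called 3 of the 10 lower (deltaTry, gammaTry and thetaTry) and 0 higher, against 4.02% of all genes lower and 3.94% higher by that test. The authors' published comparison, made with DESeq or DESeq2, also lists these 3 as lower in wh7, but each at an adjusted p above 0.05. The median log2 fold change over the 10 was -0.35, beside -0.02 over all genes tested. Both wh7 libraries were below both WT libraries in 6 of the 10, which held for 22.9% of all genes tested. Both were above in 1, which held for 23.8%. gammaTry and deltaTry are near-identical copies that may share reads, so they may not be separate observations in these counts. With 2 libraries against 2, an exact two-sided permutation test of 1 gene cannot give a p below 0.333, so each gene's adjusted p relies on variance information pooled over all genes by edgeR.

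alphaTry (FBgn0003863) had the most counts of the family. It stood at 7367 and 7569 CPM in wh7, against 10201 and 10684 CPM in WT. The wh7 libraries were both below the WT libraries, and within each genotype the libraries were close. Its log2 fold change was -0.48 (SE 0.15, edgeR adjusted p = 0.267), a ratio of 0.715. As a share of the library, alphaTry took 0.727% and 0.767% of all counts in wh7, against 1.06% and 1.03% in WT.

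betaTry (FBgn0010357), which lies beyond epsilonTry and on the opposite strand, differed less. It had 6284 and 6226 CPM in wh7, against 6869 and 7631 CPM in WT. The genotypes did not overlap, but the wh7 libraries were about as far below WT replicate 1 as the WT libraries were from each other. The log2 fold change of betaTry was -0.21 (SE 0.15, edgeR adjusted p = 0.617). It took 0.620% and 0.631% of all counts in wh7, against 0.713% and 0.735% in WT.

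epsilonTry (FBgn0010425), which lies between alphaTry and betaTry, had 1017 and 1250 CPM in wh7, against 1743 and 1622 CPM in WT. Both wh7 libraries were lower, although they differed more from each other than those of any other member did within wh7. Its log2 fold change was -0.57 (SE 0.17, edgeR adjusted p = 0.264), and it lay between -0.72 and -0.43 over the fits that each omitted 1 library.

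thetaTry (FBgn0011555), the neighbour of alphaTry on its other side, had 512 and 489 CPM in wh7, against 747 and 860 CPM in WT. The genotypes did not overlap. The log2 fold change of thetaTry was -0.68 (SE 0.15, edgeR adjusted p = 0.164, DESeq2 adjusted p = 0.00935). With each library left out in turn, it lay between -0.78 and -0.58 on the log2 scale.

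deltaTry (FBgn0010358) had the log2 fold change of the largest size among the 10, whereas alphaTry differed most in CPM. deltaTry had 135 and 139 CPM in wh7, against 231 and 249 CPM in WT. The wh7 libraries were well below the WT libraries and nearly equal to each other. Its log2 fold change was -0.81 (SE 0.13, edgeR adjusted p = 0.107), a ratio of 0.569. The DESeq2 adjusted p was 0.000181. The log2 fold change of deltaTry lay between -0.87 and -0.76 over the fits that each omitted 1 library. In BDGP6.54 the end of deltaTry overlaps CG13202 on the other strand by 15 bases, and whether strand was used in counting is not given in the sources used here. CG13202 had only 40 and 43 counts in wh7 and 23 and 32 counts in WT, against 12543 or more for deltaTry in every library.

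gammaTry (FBgn0010359) had 119 and 125 CPM in wh7, against 181 and 190 CPM in WT. Again the genotypes did not overlap. Its log2 fold change was -0.61 (SE 0.13, edgeR adjusted p = 0.157, DESeq2 adjusted p = 0.00975). gammaTry, deltaTry and the non-members CG30031 and CG30025 are known as near-identical copies, so their reads may have been split between them and the values of each are uncertain. CG30031 had 143 and 148 CPM in wh7, against 240 and 260 CPM in WT, and CG30025 had 99.5 and 102 CPM in wh7, against 167 and 176 CPM in WT. Both were lower in wh7 with no overlap, at log2 fold changes of -0.78 and -0.77 (edgeR adjusted p = 0.112 and 0.108). Summed over the 4 copies, the level was 496 and 514 CPM in wh7, against 820 and 876 CPM in WT, a ratio of 0.595. The sum does not depend on how reads were divided among the 4. Reads that were dropped or counted more than once would still change it.

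The other 4 members, lambdaTry, zetaTry, etaTry and iotaTry, had small differences whose sign varied. lambdaTry (FBgn0043470) had 393 and 326 CPM in wh7, against 374 and 386 CPM in WT. The wh7 libraries lay on either side of the WT libraries, and the log2 fold change was -0.08 (SE 0.16, edgeR adjusted p = 0.871), which was 0.05 without wh7 replicate 2. For zetaTry (FBgn0011556) the libraries held 169 and 146 CPM in wh7, against 177 and 136 CPM in WT. Here both wh7 values were inside the WT range. The zetaTry log2 fold change of 0.00 (SE 0.19, edgeR adjusted p = 0.995) was -0.18 without WT replicate 2, 0.21 without WT replicate 1, -0.0336 with upper-quartile scaling and -0.0055 with library size alone, so zetaTry has no direction.

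etaTry (FBgn0011554) was the only member with both wh7 libraries above both WT libraries, at 146 and 144 CPM in wh7, against 116 and 139 CPM in WT. The gap to WT replicate 2 was small, and the log2 fold change was 0.18 (SE 0.15, edgeR adjusted p = 0.664). iotaTry (FBgn0015001), at the far end of the cluster, had 174 and 159 CPM in wh7, against 136 and 161 CPM in WT. The genotypes overlapped, and its log2 fold change was 0.16 (SE 0.16, edgeR adjusted p = 0.705). The non-member kappaTry, next to lambdaTry, had 326 and 289 CPM in wh7, against 247 and 311 CPM in WT, which also overlapped.

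Set in chromosomal order, the 6 members with both wh7 libraries below both WT libraries lay in one stretch. It runs from thetaTry to deltaTry and includes CG30031 and CG30025, which were lower in wh7 in the same way, and its log2 fold changes ran from -0.81 to -0.21. On one side of this stretch lambdaTry, kappaTry, zetaTry and etaTry had log2 fold changes from -0.08 to 0.18, and on the other side iotaTry had 0.16. lambdaTry also had a lower mean in wh7, but its genotypes overlapped. Since gammaTry, deltaTry, CG30031 and CG30025 are near-identical and may share reads, they may not be separate observations. The genes of the stretch lie on both strands. Summed, the 6 members of the stretch had 15432 and 15798 CPM in wh7, against 19972 and 21237 CPM in WT, whereas the other 4 members had 881 and 775 CPM in wh7, against 803 and 822 CPM in WT. There were 17.5 and 20.4 counts of the 6 genes for each count of the 4 in wh7, against 24.9 and 25.8 in WT, a ratio within each library that does not depend on scaling. Because the stretch was marked out after its values were seen, no test was made of it. A difference between the stocks on this arm cannot be told apart from an effect of wh7.

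**Figure D3:**
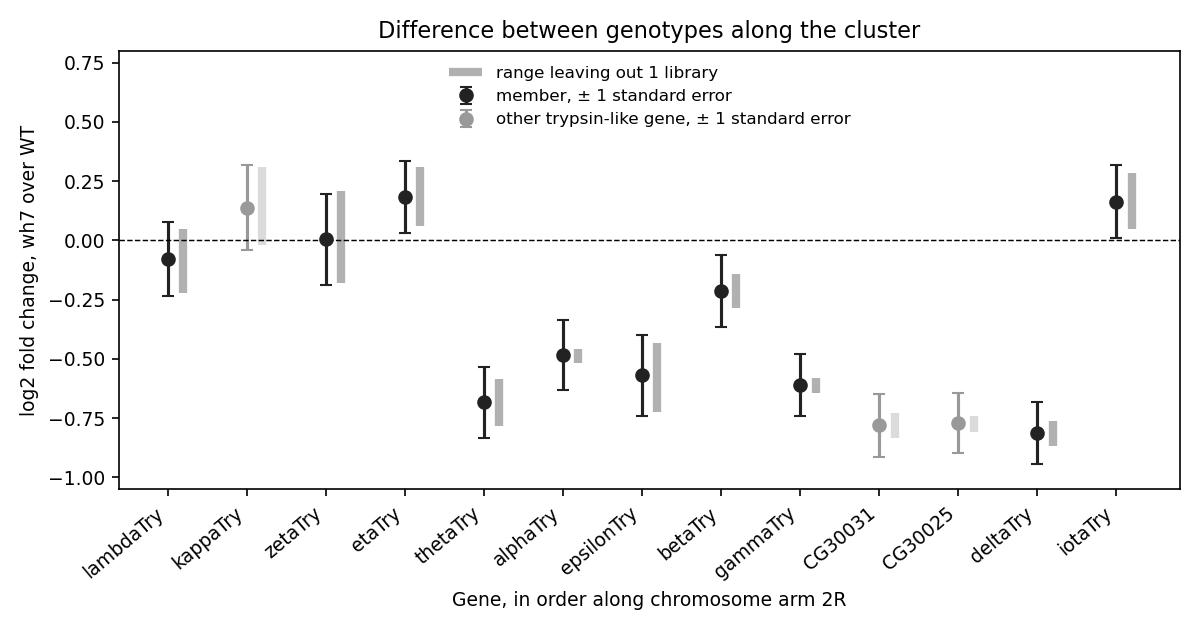
Log2 fold change of wh7 over WT for 13 trypsin-like genes in order along chromosome arm 2R, with 1 standard error (bars with caps) and the range over fits that each omitted 1 library (thick bars); members are black and the others grey. The 8 genes from thetaTry to deltaTry lie below 0, between -0.81 and -0.21 (gammaTry, CG30031, CG30025 and deltaTry are near-identical copies that may share reads), and the other 5 lie between -0.08 and 0.18.

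Each difference was also set against the difference between the libraries of one genotype. The difference between genotypes was larger than the larger of the replicate differences in 6 of the 10 genes, all lower in wh7 and the same 6 as above. This held for 16.4% of all genes tested in the direction lower in wh7 and for 16.5% in the other. A difference larger than both replicate differences also leaves no overlap, so this is a stricter form of the earlier comparison, not a separate check. For alphaTry the replicate difference was 0.07 on the log2 scale beside a genotype difference of 0.48 in size, and for zetaTry it was 0.38 beside a genotype difference near 0. Over the 10 trypsin genes the median replicate difference was 0.07 in wh7 and 0.13 in WT, and the largest was 0.30 in wh7 (epsilonTry) and 0.38 in WT (zetaTry), beside medians of 0.10 in wh7 and 0.29 in WT over the 1704 genes with a mean of at least 100 CPM.

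**Figure D4:**
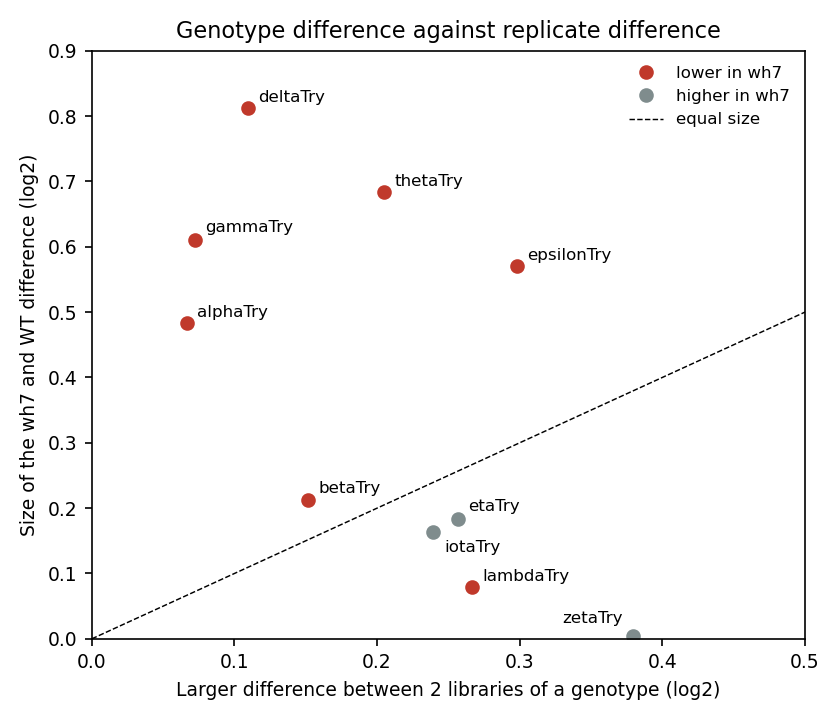
Size of the log2 difference between wh7 and WT (vertical axis) against the larger log2 difference between the libraries of a genotype (horizontal axis) for each trypsin gene; red genes are lower and grey genes higher in wh7, and the dashed line marks equal size. The genes alphaTry, betaTry, gammaTry, deltaTry, epsilonTry and thetaTry lie above the line, and the other 4 lie below it.

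Other proteases of the gut had members on both sides. Of 16 Jonah genes, a family of chymotrypsin-like digestive proteases, 9 had lower and 7 higher means in wh7, and the median was -0.14 on the log2 scale. None was called by edgeR's test, and 6 were lower and 2 higher at an unadjusted p under 0.05. DESeq2's Wald test called 5 lower and 2 higher. Over all genes tested, 7.32% were lower and 7.23% higher at that unadjusted p, and DESeq2 called 4.02% lower and 3.94% higher. They ranged from Jon65Aiii, with 4208 and 4526 CPM in wh7, against 8499 and 11036 CPM in WT, to Jon66Ci, with 39.6 and 29.0 CPM in wh7, against 3.23 and 6.88 CPM in WT. A second list of gut serine proteases, which includes kappaTry, CG30031 and CG30025, had 15 genes tested besides the members, 7 lower and 8 higher, with a median of 0.14. Again 0 were called by edgeR's test, and 6 were lower and 3 higher at an unadjusted p under 0.05. DESeq2's Wald test called 6 lower and 2 higher, beside the same shares over all genes. Its ends were Ser6 at a log2 fold change of -1.65 (edgeR adjusted p = 0.128) and CG7542 at 1.19 (edgeR adjusted p = 0.164). The trypsin genes from thetaTry to deltaTry thus lay inside the range of both lists.

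Genes known to act on digestive enzyme expression were read from a list of 9, of which 8 were tested. It held daw, babo, put and Smox of Activin signalling, which mediates the repression of digestive enzymes by dietary sugar, and the transcription factors sug, GATAe, foxo and nub. None was called by edgeR's or DESeq2's test, 0 reached an unadjusted p under 0.05 with edgeR, 7 had a higher and 1 a lower mean in wh7, and the median log2 fold change was 0.25. The lowest was put, which encodes a type II receptor, at -0.21, and the highest was nub, at 0.73. nub had 244 and 228 CPM in wh7, against 69.9 and 215 CPM in WT, so its value rests on WT replicate 1, and without that library it was 0.13.

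Markers of the cells in these guts were read beside the trypsin values. The enterocyte markers Myo31DF, nub and mex1 summed to 943 and 960 CPM in wh7, against 777 and 965 CPM in WT, with 0 of 3 called by edgeR's test. The genotypes overlapped in this sum. Of 5 enteroendocrine markers all had lower means in wh7 and 1, AstC, was called (edgeR adjusted p = 0.0466); their sum was 135 and 139 CPM in wh7, against 291 and 280 CPM in WT. The sum of the copper cell markers lab and Vha100-4 was 238 and 261 CPM in wh7, against 210 and 99.3 CPM in WT. Yolk and fat body genes (Yp1, Yp2, Yp3 and Lsp2) had lower means in wh7 in 4 of 4, with 0 called, and summed to 4478 and 4755 CPM in wh7, against 7386 and 11845 CPM in WT. Visceral muscle markers summed to 1371 and 1811 CPM in wh7, against 1831 and 1653 CPM in WT, and Malpighian tubule markers to 189 and 204 CPM in wh7, against 243 and 154 CPM in WT, with Ucp4B at 0 in every library. Germline markers summed to 0.300 and 0.311 CPM in wh7, against 0.389 and 0.189 CPM in WT, with bam at 0. Markers of intestinal progenitors were not analysed here. The part of these differences in the trypsin values was not tested.

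Profiles over the 4 libraries were compared with that of the summed trypsin genes by the root mean square difference of centred log2 CPM. Of 1694 other genes with a mean of at least 100 CPM, the 3 nearest were IA-2 (0.013), Pgant6 (0.018) and drm (0.032), and 44 lay within 0.1. Among the members, alphaTry (0.052) and betaTry (0.089) were the nearest to their own sum and etaTry (0.291) the farthest. alphaTry and betaTry hold most of the counts in that sum, so their nearness to it is not a separate result. With 4 libraries the likeness of any profile is a description only.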

How the data were processed

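The members and gene lists were chosen with earlier results of these data known. The authors trimmed reads with Trimmomatic 0.36, aligned them with HISAT2 and quantified them with StringTie 2.1.4; libraries were made with an mRNA kit. The methods state that genes of low TPM were discarded, but the count table still holds genes at 0 in every library. The authors deposited whole-number counts per gene, not normalised. Build, strand use and the treatment of reads matching several genes are not given in the sources used here, and the last bears directly on near-identical trypsin copies. A deposited table of the authors' own comparison (fold changes, p-values, normalised counts) was not used. Symbols matched 17710 of 17807 identifiers.

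Counts were filtered with filterByExpr, scaled by TMM and compared with edgeR 4.0.16 (limma 3.58.1, R 4.3.3) using the quasi-likelihood test, genotype as the only term, adjusted over 10795 genes. Standard errors were derived from the F statistic and the log2 fold change. DESeq2 1.42.0 was the alternative test. The procedure was tested on simulated data. Library totals ranged from 93603837 to 101610356 counts. Named genes were the members, kappaTry, CG30025 and CG30031, the extremes of each list and the 3 nearest profiles; CG13202 was named after its values were seen, and CG18211 of the protease list is a synonym of betaTry. The p-values set each genotype difference against the spread between pools, estimated with variance information shared over all genes.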

Additional observations from a re-analysis of the deposited data

How the results depend on the processing

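The summed trypsin level had a log2 ratio of -0.38, and it stayed between -0.42 and -0.34 with RLE or upper-quartile factors, with library size alone, with 13 trypsin-like genes summed and with each library left out. The count of trypsin genes called, 0 by edgeR's test (5 at an unadjusted p under 0.05), was 3 by DESeq2's Wald test and lay between 0 and 2 with a library omitted, with 2 called without WT replicate 1 (deltaTry and thetaTry) and 1 without WT replicate 2 (deltaTry). Of 118 gene values under alternatives, 107 kept direction and side of the threshold, 6 passed it (deltaTry 3 times, thetaTry 2 times, gammaTry 1 time) and 5 changed sign without being called. These were zetaTry with library size alone (-0.0055), with upper-quartile factors (-0.0336), without wh7 replicate 1 (-0.11) and without WT replicate 2 (-0.18), and lambdaTry without wh7 replicate 2 (0.05). Leaving out libraries gave zetaTry a range of -0.18 to 0.21 and lambdaTry one of -0.22 to 0.05. Keeping the side of the threshold meant staying uncalled, since edgeR's test had called no trypsin gene. In settings where no gene at all was called, no trypsin gene could pass, so those values say nothing about robustness of the calls. Over all genes the number called was 52, and 30 without a filter, 859 by DESeq2, and between 0 and 921 when each library was left out (0 without wh7 replicate 1 or 2, 401 without WT replicate 1, 921 without WT replicate 2). For the other proteases and regulators it was 0 by edgeR's test, 15 by DESeq2, between 0 and 14 with a library left out and 1 with the crossed block. With 1 library left in a genotype, that library is assumed to vary like the others. Without a WT library the spread between libraries is estimated from the wh7 pair alone, and without a wh7 library from the WT pair alone. Over the 1704 genes with a mean of at least 100 CPM, the median replicate difference was 0.10 in wh7 and 0.29 in WT. The part of this in the shifts above was not tested.

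The replicate numbers share only a number. With the replicate number as a block, 0 trypsin genes and 0 of all genes were called; the deviations of same-numbered libraries correlated at -0.155 across genes, and the crossed block, added after seeing the data, called 99 genes of all and 0 trypsin genes. Summing genes with at least 90% identical proteins was not run, since protein sequences were not used here; instead gammaTry, deltaTry, CG30031 and CG30025 were summed into 1 feature, an alternative added after seeing the data, which left 52 genes called and 0 trypsin genes.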
